A study of Homo sapiens with 9 samples.

Results

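The genes described here are 10 members of the bacterial sensing system of myeloid cells: the Toll-like receptor genes TLR1, TLR2, TLR4, TLR5, TLR6, TLR7 and TLR8, the lipopolysaccharide (LPS) co-receptor genes CD14 and LY96, and the adaptor gene MYD88. They were taken by name, and all 10 were found among 35856 loci of the treatment table and 36119 loci of the knockout table. RNA was sequenced in 9 libraries of NB4 cells. NB4 is a human cell line from acute promyelocytic leukaemia, in which the fusion protein PML-RARA blocks maturation until retinoic acid (RA) is given. The treated cells had 24 h of MC_2580 plus RA 0.01 uM (called the combination), MC_2580 alone, RA 1 uM, RA 0.01 uM or the vehicle DMSO, with 1 library for each. MC_2580 inhibits LSD1, a histone demethylase, according to the study's design, and no dose of it is stated. In the second set, 2 libraries came from untreated LSD1 knockout (KO) NB4 cells and 2 from untreated wild-type (WT) NB4 cells. How many KO clones were used is not stated, so loss of LSD1 cannot be told apart from other differences between the lines.

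Toll-like receptors are membrane proteins that recognise parts of microbes. TLR4 recognises LPS of Gram-negative bacteria through LY96 (MD-2), a small secreted protein bound to its outer domain, while CD14 hands LPS to the pair. TLR2 recognises bacterial lipoproteins as a partner of TLR1 or of TLR6. TLR5 binds flagellin at the cell surface, and TLR7 and TLR8 bind RNA in endosomes. MYD88 joins these receptors to the IRAK kinases, from which NF-kB and the genes of the inflammatory response are switched on. CD14 is high on monocytes, lower on neutrophils, and low on promyelocytes.

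In build hg18, which the files use, TLR1 (38474275 to 38482807), TLR6 (38504618 to 38507555) and TLR2 (154843472 to 154846688) were listed on chromosome 4. TLR4 was listed on chromosome 9 (119506291 to 119519589) and MYD88 on chromosome 3 (38155009 to 38159514). TLR5 was listed on chromosome 1 (221350207 to 221383247), TLR7 on chromosome X (12795123 to 12818401) and TLR8 on chromosome X (12834679 to 12851209). The locus listed for CD14, chromosome 5 from 139991501 to 140022247, is far longer than the gene and is shared in the tables with TMCO6 and NDUFA2.

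TLR1 and TLR6 are neighbouring copies of one gene, and their coding regions hold the same stretch of 218 bases. It is shown because reads from it cannot be assigned to either gene. In GRCh38 (GENCODE 29 transcripts) it runs from 38797236 to 38797453 in TLR1 and from 38827863 to 38828080 in TLR6, chromosome 4, minus strand.
TLR1 and TLR6: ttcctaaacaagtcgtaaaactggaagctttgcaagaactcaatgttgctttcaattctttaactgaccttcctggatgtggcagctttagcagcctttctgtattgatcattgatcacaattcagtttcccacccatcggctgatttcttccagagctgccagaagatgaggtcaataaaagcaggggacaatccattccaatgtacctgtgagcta
Of all 50-base windows, 8.5% of those in the TLR1 transcript (2849 bases) were also found in TLR6, and 8.24% of those in the TLR6 transcript (2938 bases) in TLR1. How the authors' counting divided such reads is not stated, so the levels of both genes are uncertain to that extent.

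Upstream sequences from RefSeq (GRCh38.p14) were found for 7 of the 10 members. Those of TLR4, CD14 and MYD88, the receptor, co-receptor and adaptor of the LPS pathway, are shown as the 250 bases before the gene start. Capitals mark GAGGAA, on either strand, the core bound by the myeloid factor PU.1, and in MYD88 also a pair of GAAA separated by 2 bases, the element bound by interferon regulatory factors.
TLR4: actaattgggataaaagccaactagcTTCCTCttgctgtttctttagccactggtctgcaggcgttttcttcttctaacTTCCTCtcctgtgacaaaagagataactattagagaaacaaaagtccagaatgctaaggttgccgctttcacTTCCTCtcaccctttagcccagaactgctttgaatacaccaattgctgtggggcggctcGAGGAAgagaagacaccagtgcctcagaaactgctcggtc
CD14: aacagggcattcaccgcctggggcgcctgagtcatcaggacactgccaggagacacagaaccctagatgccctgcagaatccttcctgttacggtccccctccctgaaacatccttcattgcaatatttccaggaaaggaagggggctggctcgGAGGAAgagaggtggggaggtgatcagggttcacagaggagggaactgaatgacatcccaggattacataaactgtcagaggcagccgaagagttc
MYD88: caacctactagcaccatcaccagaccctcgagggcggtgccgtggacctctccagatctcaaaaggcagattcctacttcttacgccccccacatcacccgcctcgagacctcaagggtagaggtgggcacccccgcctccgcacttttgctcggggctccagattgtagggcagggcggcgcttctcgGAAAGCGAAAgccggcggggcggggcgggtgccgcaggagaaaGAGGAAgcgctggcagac
GAGGAA occurred 4 times in the TLR4 window (chr9:117704153-117704402, plus strand) and once each in those of CD14 (chr5:140633176-140633425, minus strand) and MYD88 (chr3:38138411-38138660, plus strand). With TLR6, it was present in 4 of 7 members, against 23.6% of all 35116 windows of the same length. The GAAA pair was present in MYD88 alone of the 7 members, against 3.02% of all windows. The C/EBP motif TTGCNNAA was found only in TLR8 of the 7, against 9.05% of all windows. The nuclear receptor element AGGTCA (12.1% of all windows) and an NF-kB motif of GGG and TTTCC separated by 2 bases (1.73%) were found in none of the 7. Both strands were searched for each motif. GAGGAA does not overlap the GAAA pair in MYD88. These matches describe letters and are not binding sites.

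Values are FPKM (fragments per kilobase, scaled to library size), a level per length. Between 11974 and 13365 loci reached 1 FPKM, and 50.5% to 65.7% of all FPKM lay in the 10 highest. Without read totals, no counting interval was computed. From the spacing of low values, 1 FPKM stood for 0.732 to 0.901 times as many reads in the other treatment libraries as in DMSO, and for 1.04 to 1.66 times the reads of WT 1 in the other KO and WT libraries. The promyelocyte gene MPO was at 2454.3 to 6518.1 FPKM in the 9 libraries, with PRTN3, AZU1 and CTSG also expressed, while ELA2 (neutrophil elastase, a defining gene of the same stage) lay at 0.242 FPKM or less. The red cell gene HBB was at 0 in all 9 libraries. Of the lymphoid markers, the B cell gene MS4A1 was at 0 in all 9, but the B cell receptor genes CD79A and CD79B were at 1.43 to 73.4 FPKM and 2.74 to 23.2 FPKM, and the T cell gene CD3D was at 56.1 to 212.9 FPKM. In bulk RNA, fewer cells of a type and less RNA per cell cannot be told apart.

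The combination library was the only one in which all 3 genes of the LPS receptor (TLR4, LY96 and CD14) reached 1 FPKM, and the CD14 value in RA 1 uM is missing because the authors' test of it failed. LY96 was at 7.42 FPKM in the combination, 4.06 in MC_2580, 0 in RA 1 uM, 0.115 in RA 0.01 uM and 0.252 in DMSO. It was thus high in both libraries that received MC_2580 and near 0 in the others. CD14 was at 3.03 FPKM in the combination, 0.221 in MC_2580, 0.124 in RA 0.01 uM and 0.109 in DMSO. It stood out in the combination, and both single treatments with a value lay near DMSO. TLR4 was at 6.48 FPKM in the combination, 3.04 in MC_2580, 8.92 in RA 1 uM, 4.97 in RA 0.01 uM and 2.81 in DMSO. The 3 libraries with RA were the highest, and MC_2580 alone lay beside DMSO.

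The partners of TLR2 behaved differently from TLR2. TLR1 was at 13.9 FPKM in the combination, 4.59 in MC_2580, 1.94 in RA 1 uM, 0.907 in RA 0.01 uM and 1.76 in DMSO. Its highest levels were again in the libraries with MC_2580, and its lowest was in the low dose of RA. TLR6 was at 8.16 FPKM in the combination, 4.2 in MC_2580, 3.22 in RA 1 uM, 2.01 in RA 0.01 uM and 3.2 in DMSO, which is the same order of the highest and lowest libraries over a narrower range. TLR2 itself was at 3.55 FPKM in the combination, 3.78 in MC_2580, 3.02 in RA 1 uM, 3.06 in RA 0.01 uM and 3.67 in DMSO. Its 5 values spanned a log2 range of 0.25, against 2.97 for TLR1 and 1.61 for TLR6.

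MYD88, the adaptor, was at 58.1 FPKM in the combination, 10.8 in MC_2580, 18.0 in RA 1 uM, 10.2 in RA 0.01 uM and 8.78 in DMSO. It was far above the others in the combination, with RA 1 uM next. TLR5, TLR7 and TLR8 stayed under 1 FPKM in all 9 libraries: TLR5 did not exceed 0.0606 FPKM, TLR7 0.187 FPKM and TLR8 0.0223 FPKM. No comparison was made for these 3 genes.

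**Figure D1:**
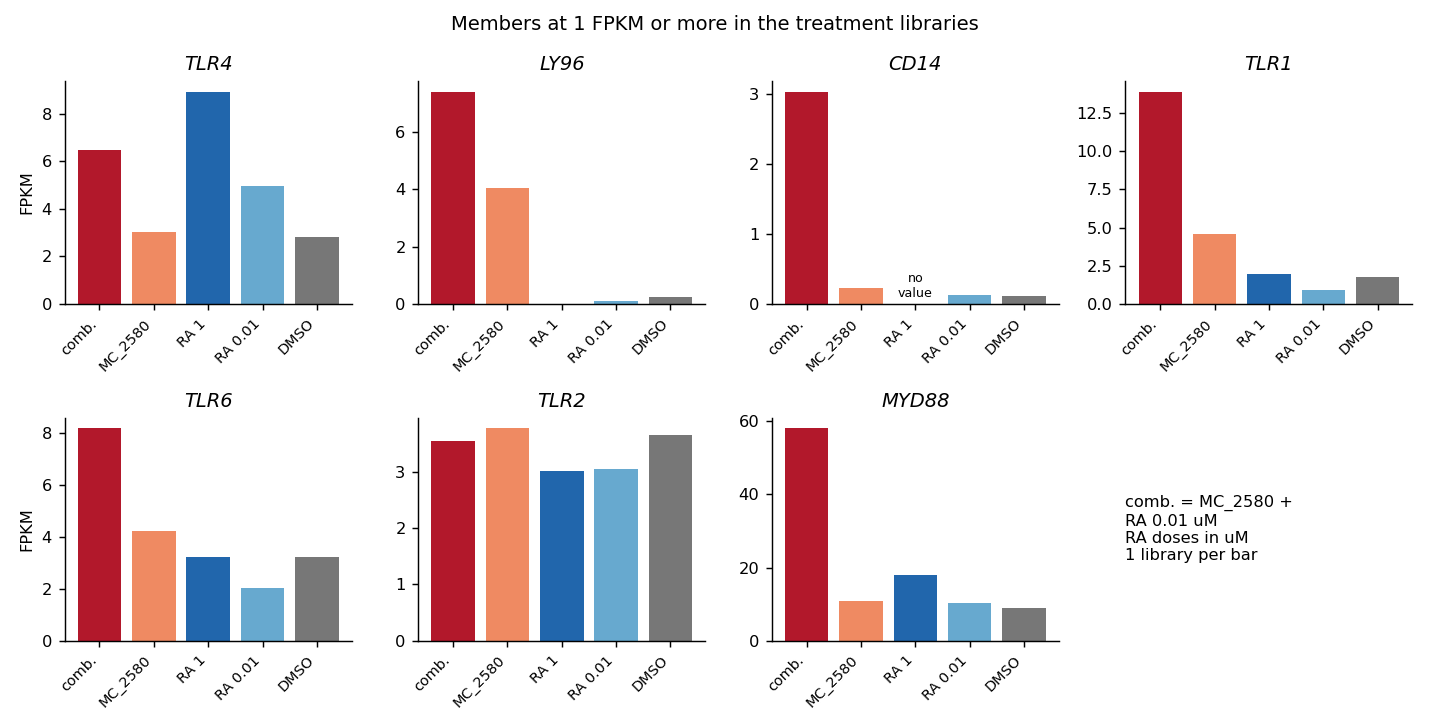
FPKM (vertical axis, linear, from 0) of the 7 members that reached 1 FPKM in a treatment library, 1 bar per library, with the CD14 value of RA 1 uM missing. LY96 is seen in the 2 libraries with MC_2580, CD14 stands out in the combination at 3.03 FPKM, TLR4 is highest in RA 1 uM at 8.92 FPKM, and TLR2 stays between 3.02 and 3.78 FPKM.

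Each treatment was compared with DMSO to see which members it moved, as log2 of FPKM + 1, a scale that understates changes of low genes. With 1 library per treatment there is no replicate check and no test, and a member was called higher or lower by size alone, at 2-fold, if it reached 1 FPKM in either library. For scale, KO 1 against KO 2 put 3.42% of protein-coding genes past 2-fold, among them TLR6 and LY96, and WT 1 against WT 2 put 3.78%, among them TLR2. The shares of protein-coding genes given below are those with 1 locus that passed the same filter.

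In the combination against DMSO, 5 of 7 members tested were higher and 0 lower, where 9.36% of protein-coding genes passed upward and 3.42% downward. The log2 differences were 2.75 for LY96, 2.59 for MYD88, 2.44 for TLR1, 1.86 for CD14 and 1.12 for TLR6. TLR4 fell just short at 0.97, and TLR2 was at -0.04. CD14 and LY96 were under 1 FPKM in DMSO and entered only through the combination, so they could not have been called lower. Of the other 5 members, 3 were higher. CD14 was under 1 FPKM in the single treatments and DMSO, or had no value, and was compared in the combination alone. In the authors' deposited table, which tests 1 library against another, this comparison was called significant for LY96, MYD88, TLR1 and CD14 and not for TLR6.

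In MC_2580 against DMSO, 2 of 6 members were higher and 0 lower, where 0.741% of protein-coding genes passed upward and 0.0104% downward. LY96, which entered only through MC_2580, differed by 2.01 and TLR1 by 1.02, and the next was TLR6 at 0.31. The authors' deposited table calls LY96 alone. In RA 1 uM against DMSO, 1 of 5 was higher, TLR4 at 1.38, and 0 were lower, where 6.5% of protein-coding genes passed upward and 2.7% downward. MYD88, at 0.96, lay just under the threshold, and the authors' deposited table calls TLR4 alone. In RA 0.01 uM against DMSO, 0 of 5 passed in either direction, where 4.87% were higher and 2.78% lower, with values from -0.53 for TLR1 to 0.65 for TLR4. Between the doses, RA 1 uM against RA 0.01 uM, 0 of 5 passed, where 0.753% were higher and 0.178% lower. The largest difference between the doses was 0.76, for MYD88.

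The combination was also set against each of its components. Against RA 0.01 uM, 5 of 7 members were higher and 0 lower, where 4.61% of protein-coding genes passed upward and 0.358% downward: TLR1 by 2.97, LY96 by 2.92, MYD88 by 2.40, CD14 by 1.84 and TLR6 by 1.61 on the log2 scale. LY96, CD14 and TLR1 were under 1 FPKM in RA 0.01 uM, and of the other 4 members 2 were higher. The authors' deposited table calls the same 5 genes. Against MC_2580, 3 of 7 were higher and 0 lower, where 7.87% were higher and 3.32% lower: MYD88 by 2.32, CD14 by 1.72 and TLR1 by 1.42. The authors' deposited table calls MYD88 and CD14 but not TLR1, and CD14 entered only through the combination. LY96 differed by only 0.74 from MC_2580 alone. These comparisons and those with DMSO share libraries, so they are not separate evidence.

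To see whether the combination equalled its components together, its log2 difference from DMSO was set against the sum of those of MC_2580 and RA 0.01 uM. Of 7 members, 4 lay at least 2-fold above the sum, where 2.81% of protein-coding genes did. CD14 is among the 4 and entered only through the combination, and 3 of the other 6 lay above. MYD88 lay 2.13 above it, with 58.1 FPKM measured and 12.5 given by the sum. TLR1 lay 1.95 above (13.9 FPKM against 2.86), CD14 1.71 above (3.03 against 0.237) and TLR6 1.30 above (8.16 against 2.72). LY96 was 0.90 above, TLR4 0.24 and TLR2 0.13. Marker genes moved in the same library: the 6 monocyte and macrophage markers with a value in every treatment library summed to 127.5 FPKM in the combination, 13.4 in MC_2580, 20.7 in RA 1 uM, 22.3 in RA 0.01 uM and 10.8 in DMSO. Most of the combination's sum was FCN1, at 114.0 FPKM in the combination and 9.72 FPKM in DMSO, while CD163 and MRC1, macrophage genes, were at or near 0 in all 5. The 6 late granulocyte markers summed to 15.1 FPKM in the combination and 0.689 FPKM in DMSO. In between lay RA 1 uM at 7.32 FPKM, RA 0.01 uM at 6.2 and MC_2580 at 1.41. The B cell gene CD79A was at 73.4 FPKM in the combination, 2.33 in MC_2580, 55.2 in RA 1 uM, 50.0 in RA 0.01 uM and 1.62 in DMSO. The part of these marker genes in the members' levels was not tested.

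**Figure D2:**
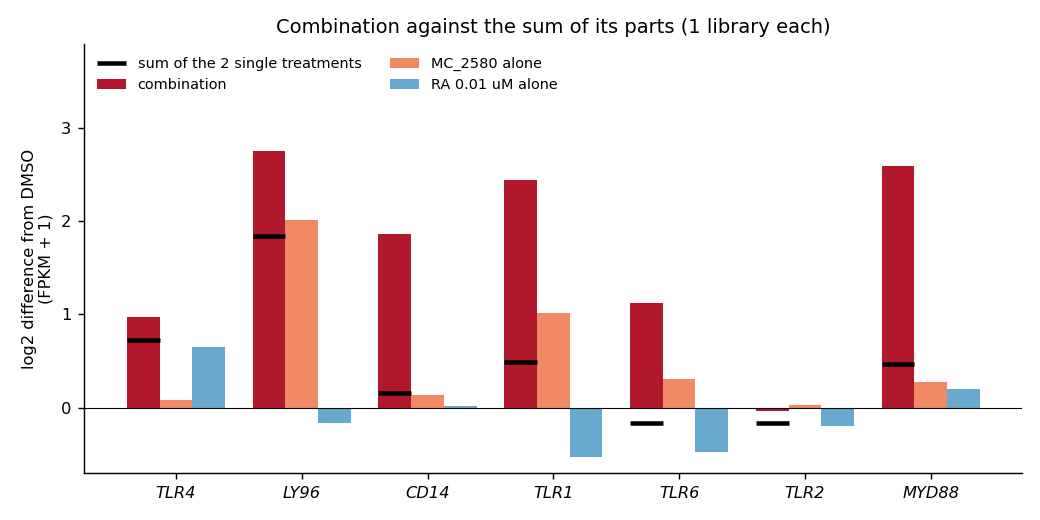
Log2 difference from DMSO on the scale of FPKM + 1 (vertical axis) for 7 members in the combination, MC_2580 and RA 0.01 uM, 1 library each, with a black line at the sum of the 2 single treatments. The combination bar of MYD88 stands 2.13 above its line and that of TLR1 1.95 above, whereas the bars of TLR4 and TLR2 stand 0.24 and 0.13 above theirs.

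The KO and WT libraries were compared to see what loss of LSD1 does in untreated cells. KDM1A, the gene of LSD1 (AOF2 in the tables), was at 14.0 and 16.8 FPKM in KO and 49.8 and 66.6 in WT, so RNA of the targeted gene was lower but present in KO (log2 difference -1.84, SE 0.23, limma adjusted p = 0.158). LY96 was at 6.31 and 2.03 FPKM in KO and 0.248 and 0.05 in WT. TLR1 was at 7.08 and 4.85 FPKM in KO and 2.83 and 1.42 in WT. For both genes the KO values lay above the WT values without overlap.

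TLR2 was at 1.69 and 1.02 FPKM in KO and 7.57 and 2.99 in WT, with both KO values below both WT values. TLR6 was at 7.45 and 2.87 FPKM in KO and 3.8 and 1.96 in WT, TLR4 at 4.06 and 5.42 in KO and 2.82 and 6.49 in WT, and MYD88 at 9.25 and 12.8 in KO and 7.0 and 11.2 in WT. The groups overlapped for these 3 genes. CD14, at 0.0544 to 0.0942 FPKM in KO and 0.0733 to 0.133 in WT, was too low to be tested, as were TLR5, TLR7 and TLR8.

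With limma across all 13157 loci of at least 1 FPKM in a group mean, 0 of the 6 members tested passed an adjusted p of 0.05. At that threshold 0.0608% of loci were called higher in KO (8) and 0.0532% lower (7). Of the 6 members, 3 had an unadjusted limma p under 0.05, as had 942 of the 13157 loci. LY96 differed by 2.04 (SE 0.52, limma adjusted p = 0.521), TLR1 by 1.18 (SE 0.34, limma adjusted p = 0.591) and TLR2 by -1.33 (SE 0.46, limma adjusted p = 0.691), all log2 of KO over WT. TLR6 differed by 0.60 (SE 0.51), MYD88 by 0.27 (SE 0.30) and TLR4 by 0.09 (SE 0.40), with limma adjusted p-values of 0.846, 0.908 and 0.991. Of the 6, 2 had both KO above both WT, as had 18.7% of protein-coding genes, and 1 had both below, as had 16.9%. For LY96, TLR1 and TLR2 the KO to WT difference was larger than either gap between replicates (at most 1.27, 0.67 and 1.10 on the log2 scale), but none passed after adjustment over all loci. LY96 passed the filter only through KO, where it is high. Without KO 1 the TLR6 difference was 0.04. Within same-numbered pairs of libraries, KO differed from WT by 0.82 and 0.39 for TLR6 and by 0.36 and 0.18 for MYD88. The pairs gave 0.40 and -0.22 for TLR4, 2.55 and 1.53 for LY96, 1.08 and 1.28 for TLR1 and -1.67 and -0.98 for TLR2. What the replicate numbers mark is not stated. In the authors' deposited table none of the members is called in either pair of KO and WT libraries. Whether replicates came from separate cultures is not stated, and p-values therefore measure only the spread between these libraries. Lymphoid markers differed between the genotypes, not all in one direction. The 5 T cell markers summed to 229.5 and 189.4 FPKM in KO and 117.3 and 71.3 in WT, nearly all of it CD3D. CD2 was at 3.45 and 3.06 FPKM in KO and 0.0724 and 0.0602 in WT, and CD3G at 12.9 and 13.6 in KO and 1.28 and 1.05 in WT. CD8A was lower in KO (0.262 and 0.101 FPKM) than in WT (1.34 and 1.12), and CD3E stayed under 0.1 FPKM in all 4. The 4 B cell markers summed to 31.8 and 23.7 FPKM in KO and 19.5 and 14.6 in WT, with CD79A at 7.87 and 8.77 in KO and 1.79 and 1.43 in WT. Their part in the members' values was not tested. The 7 monocyte markers summed to 17.8 and 16.7 FPKM in KO and 18.2 and 15.0 in WT.

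**Figure D3:**
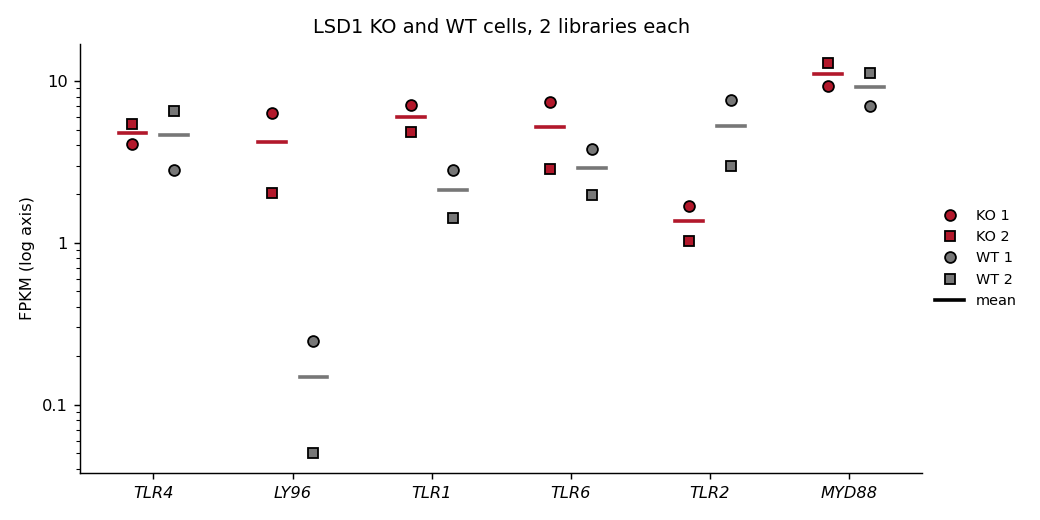
FPKM on a log axis of the 6 members tested in KO (red) and WT (grey) libraries, with circles for replicate 1, squares for replicate 2 and a line at each mean. LY96 and TLR1 lie higher in both KO libraries than in both WT libraries, TLR2 lies lower in both, and TLR4, TLR6 and MYD88 overlap.

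Within each library the level of TLR1 or TLR6 was also divided by that of TLR2, a ratio that does not depend on the scaling between libraries. The ratio of TLR1 to TLR2 was 4.19 and 4.76 in KO and 0.374 and 0.474 in WT, and that of TLR6 to TLR2 was 4.41 and 2.82 in KO and 0.502 and 0.656 in WT. In KO both partners were above TLR2 and in WT both were below it, with no overlap. The ratio of TLR1 to TLR2 was 3.91 in the combination, 1.21 in MC_2580, 0.642 in RA 1 uM, 0.296 in RA 0.01 uM and 0.479 in DMSO. The ratio was above 1 in the 2 libraries with MC_2580 and in no other treatment library. The ratio of TLR6 to TLR2 was 2.29 in the combination, 1.11 in MC_2580, 1.07 in RA 1 uM, 0.655 in RA 0.01 uM and 0.873 in DMSO. No test was made of these ratios, which were computed after the levels were seen, and the smallest two-sided p an exact permutation of 2 libraries against 2 can give is 0.333.

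**Figure D4:**
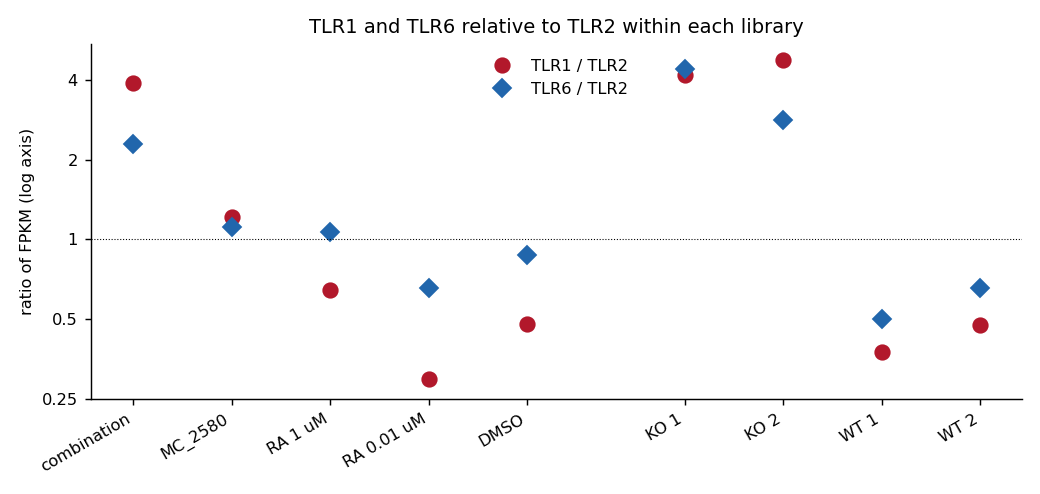
Ratio of the FPKM of TLR1 (circles) or TLR6 (diamonds) to that of TLR2 on a log axis, 1 point per library, with a dotted line where the levels are equal. The KO libraries lie at 2.82 to 4.76 and the WT libraries at 0.374 to 0.656, and among the treatments the combination is the highest at 3.91 for TLR1 and 2.29 for TLR6.

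The other genes of the pathway were read from 6 lists, with the same rule of 2-fold against DMSO. The counts of genes higher are to be read against the shares of protein-coding genes given above: 9.36% in the combination, 6.5% in RA 1 uM, 4.87% in RA 0.01 uM and 0.741% in MC_2580. Among adaptors and proximal kinases, 2 of 10 tested were higher in the combination and 0 lower: IRAK2, a kinase recruited by MYD88, at 6.96 FPKM against 1.11 in DMSO (log2 difference 1.91), and TIRAP, which brings MYD88 to TLR2 and TLR4, at 4.94 against 1.38 (1.32). The median of this list was 0.42, against -0.02 over all loci tested. IRAK4 (0.59) and TRAF6 (0.18), the next steps from MYD88, did not pass. In each single treatment 0 of the list passed. Of kinases and transcription factors further on, 3 of 12 were higher in the combination and 0 lower. They were led by IRF7, an interferon regulatory factor, at 25.7 FPKM against 4.78 in DMSO (2.21). IRF7 was also higher in RA 1 uM, at 13.5 FPKM (1.32), and was the 1 gene of 12 to pass there. In RA 0.01 uM and in MC_2580 0 of 12 passed.

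Of 6 accessory genes tested, 4 were higher in the combination and 0 lower. ITGAM and ITGB2 encode the subunits of CD11b/CD18, the integrin of mature myeloid cells, and differed by 5.22 and 2.76. LY86 (MD-1), the LY96 relative that pairs with CD180, differed by 1.65, and UNC93B1, which carries endosomal receptors to their place, by 1.33. RA 0.01 uM had 2 of 7 higher, RA 1 uM 2 of 6 and MC_2580 2 of 6, with 0 lower in each. Those were ITGAM and ITGB2 in both doses of RA, and ITGAM and LY86 in MC_2580. ITGAM was at 136.1 FPKM in the combination, 42.5 in RA 1 uM, 22.9 in RA 0.01 uM, 13.9 in MC_2580 and 2.68 in DMSO. ITGB2 was at 416.0 FPKM in the combination, 345.9 in RA 1 uM, 280.4 in RA 0.01 uM, 83.2 in MC_2580 and 60.4 in DMSO. LY86 was at 50.6 FPKM in the combination, 36.3 in MC_2580, 15.0 in RA 1 uM, 15.2 in RA 0.01 uM and 15.5 in DMSO. Like LY96, it was high in both libraries with MC_2580 and at the DMSO level in RA alone. In the untreated lines LY86 was at 64.2 and 21.5 FPKM in KO and 53.8 and 11.9 in WT. These gaps between replicates are wider than that between MC_2580 and DMSO. The KO and WT values of LY86 overlapped, unlike those of LY96. Its partner CD180 stayed at 0.406 FPKM or less in all 9 libraries.

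Of 11 negative regulators, 5 were higher in the combination and 0 lower: SOCS1 by 2.79, NFKBIA, the inhibitor of NF-kB, by 1.79, CYLD by 1.63, SOCS3 by 1.62 and SIGIRR by 1.32. SOCS1 and SOCS3 were under 1 FPKM in DMSO. RA 1 uM had 3 of 11 higher: SOCS3 by 1.33, SIGIRR by 1.23 and SOCS1 by 1.07. RA 0.01 uM had 2 of 11, SOCS1 by 2.05 and SOCS3 by 1.63, and MC_2580 had 0 of 10. Of 8 inducible targets tested, genes that this pathway is known to switch on, 7 were higher in the combination and 0 lower. The list holds 14 genes. IL1A (0.741 FPKM in the combination), IFNB1 (0.266), IL12B (0.0524), PTGS2 (0) and IL6 (0) stayed under 1 FPKM in every treatment library and were not compared. RA 1 uM had 6 of 8 higher and 1 lower, RA 0.01 uM 5 of 8 higher and 1 lower, and MC_2580 3 of 7 higher and 0 lower. IL1B and CCL4 were under 1 FPKM in DMSO, so they could not have been called lower. The 7 in the combination included CCL2, a monocyte attractant (519.2 FPKM in the combination and 2.12 in DMSO), the adhesion gene ICAM1 (1854.3 and 10.6), CXCL10 (74.8 and 1.84) and IL1B (24.4 and 0.623). CCL2 was also high without MC_2580, at 854.3 FPKM in RA 1 uM and 385.4 in RA 0.01 uM, as was ICAM1, at 593.7 and 424.8 in the same libraries. IL8, a neutrophil attractant, was at 102.6 FPKM in RA 1 uM, 57.9 in RA 0.01 uM and 20.8 in DMSO. CXCL10 was high in MC_2580 alone at 20.0. Its replicates in the untreated lines differed widely, at 12.7 and 1.68 FPKM in WT and 6.14 and 1.55 in KO. IL6 was at 0 in all 5 treatment libraries. IL1RN, the interleukin 1 receptor antagonist, was at 1.34 FPKM in the combination, 14.5 in MC_2580, 0.0884 in RA 1 uM, 0.0607 in RA 0.01 uM and 3.35 in DMSO, so it was highest with MC_2580 alone. Of 3 of the body's own ligands of TLR4 or TLR2 tested, 2 were higher and 0 lower in each treatment. S100A8 and S100A9 (calprotectin) were higher by 7.77 and 8.01 in the combination and by 6.05 and 6.97 in RA 1 uM. They were higher by 5.79 and 6.75 in RA 0.01 uM, against 1.57 and 2.40 in MC_2580. S100A8 was at 0.921 FPKM in DMSO, so it could not have been called lower. HMGB1 did not pass, at -0.69 in the combination, -0.36 in RA 1 uM, -0.32 in RA 0.01 uM and -0.24 in MC_2580.

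In KO against WT, 0 of the 47 pathway genes tested passed in limma among all loci. S100A8 was at 10.3 and 17.4 FPKM in KO and 0.63 and 1.23 in WT, a log2 difference of 2.92 (limma adjusted p = 0.152). S100A9 was at 39.9 and 55.9 FPKM in KO and 4.3 and 3.84 in WT (3.25, limma adjusted p = 0.0658). Among protein-coding genes only, 3 of the 47 passed: S100A8 (limma adjusted p = 0.0447), S100A9 (limma adjusted p = 0.0256) and CCL2 (limma adjusted p = 0.0347), where 0.431% of protein-coding genes were called higher in KO and 0.161% lower. CCL2 was the lower one, at 0.172 and 0.132 FPKM in KO and 3.44 and 3.0 in WT, a log2 difference of -1.87. S100A8 passed the filter only through KO and CCL2 only through WT, the group where each is high. S100A8 could therefore not have been called lower, nor CCL2 higher.

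**Figure D5:**
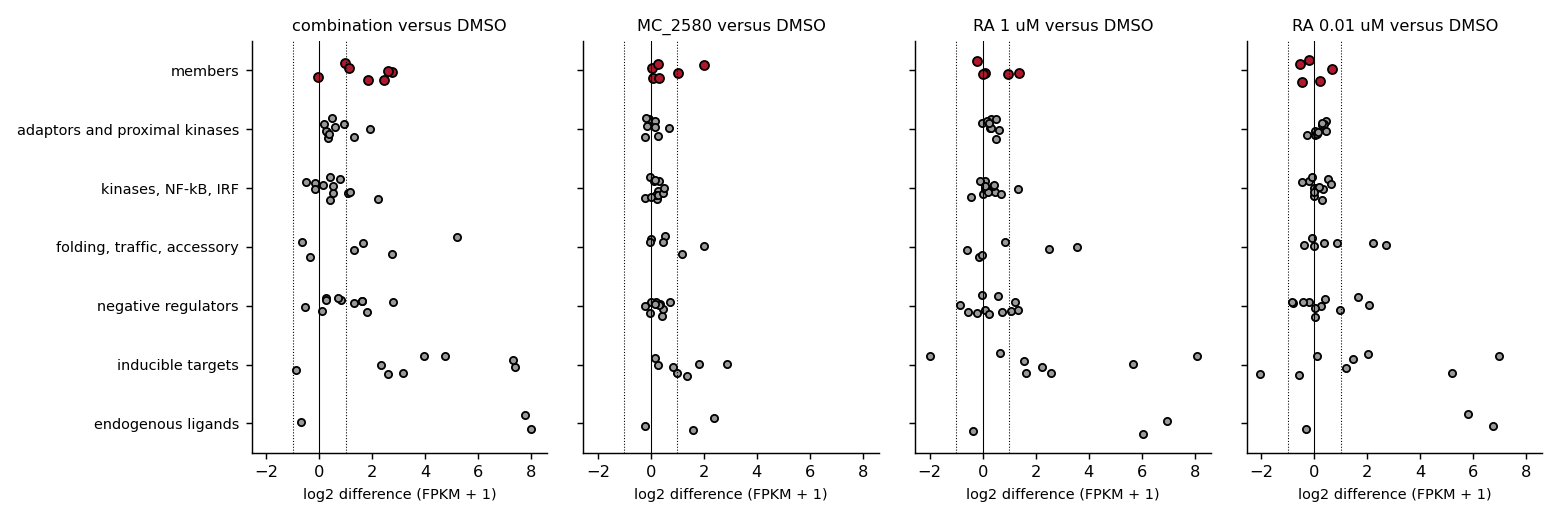
Log2 difference from DMSO on the scale of FPKM + 1 (horizontal axis) in each treatment, 1 point per gene tested, for the members (red) and the 6 pathway lists (grey), with dotted lines at 2-fold. In the combination 5 of 7 members and 7 of 8 inducible targets lie past 2-fold, and adaptors past 2-fold are seen in the combination only.

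Among the 9 members with a value in all 5 treatment libraries, which leaves out CD14, LY96 and TLR1 had the widest range of log2(FPKM + 1), 3.07 and 2.97. With a pseudocount of 0.1 FPKM CD14 differed by 3.91 between the combination and DMSO. The protein-coding genes of at least 5 FPKM in 1 treatment library whose centred profile lay nearest to theirs were sought among 8135. Nearest to LY96 was GPR65, a proton-sensing receptor of white blood cells, at a Euclidean distance of 0.401, where the median gene lay at 2.9. GPR65 was at 7.6 FPKM in the combination, 3.57 in MC_2580, 0.311 in RA 1 uM, 0.167 in RA 0.01 uM and 0.223 in DMSO. SERPINB8 (0.699), the myeloid transcription factor gene IRF8 (0.709), STS (0.745) and SYTL3 (0.761) followed. Nearest to TLR1 were STS (0.475), EVI2B (0.483), C14orf4 (0.508), SIGLEC7 (0.511) and SIRPB2 (0.514), where the median gene lay at 2.39. STS was among the nearest for both members. With 5 libraries, a likeness in profile is a description only.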

How the data were processed

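RNA was sequenced from NB4 cells in 9 libraries, grouped by the sample labels. The authors deposited FPKM per locus in both tables, per the file headers, and in the knockout table they had added 0.001 to each value, which was taken off. Per the file headers, the deposited tables also hold log2 fold changes (knockout table), p-values and q-values; the deposited q-values of the treatment table reach 1.44, so they are a score and only the authors' yes or no calls were used. Build hg18, Cuffdiff, Cufflinks, TopHat2 2.0.10, TopHat 1.3.1 and CASAVA 1.8 are named in the submitters' processing notes. The scaling between libraries, the annotation and any use of strand are not stated there.

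Values of failed tests listed at 0 were treated as missing. The tables were normalized separately, so tests stayed within 1 table. The KO libraries were set against WT on log2(FPKM + 1) with limma-trend (limma 3.58.1, R 4.3.3). Loci entered where either group averaged 1 FPKM or more, and p-values were adjusted over all of them by Benjamini-Hochberg. Treatments, 1 library each, were compared by size at 2-fold on the same scale. Other steps used numpy 2.4.6, pandas 2.3.3 and matplotlib 3.10.9 under Python 3.11.15, and both procedures were tested on simulated data. Symbols were matched to RefSeq names, 20669 and 20678 in the knockout and treatment tables. The genes named were all members, KDM1A, list genes past the rule (at most 4 per list and comparison, largest first) and, for the 2 members of widest range, the 5 nearest profiles. List genes outside the rule (IRAK4, TRAF6, CD180, IL6, IL8, CCL4, IL1RN, SIGIRR, HMGB1, and S100A8, S100A9, CCL2, LY86 and CXCL10 in KO and WT) were chosen after their values were seen. The same holds for IL1A, IFNB1, IL12B and PTGS2. The members and lists were chosen with earlier results of these data known. TNF and HSPA1A, with several loci, and HSP90AA1, CHUK and CNPY3 where a table gave no single value, were not analysed here. Alternatives were another pseudocount, no filter on low values, quantile normalization, rescaling to a median of 0, a replicate block, protein-coding genes only, leaving out each KO or WT library, 4-fold, the authors' calls and a linear sum.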

Additional observations from a re-analysis of the deposited data

Results flagged for a closer look

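In 3 members the change with RA 0.01 uM had one sign with MC_2580 present and the other without it. TLR1 changed by 1.42 on the log2 scale when RA 0.01 uM was added to MC_2580 and by -0.53 when it was added to DMSO, a gap of 1.95. TLR6 changed by 0.82 with MC_2580 and by -0.48 without it, a gap of 1.30. LY96 changed by 0.74 with MC_2580 and by -0.17 without it, a gap of 0.90, from a DMSO level of 0.252 FPKM. These gaps are the same values as the distances above the sum given earlier, so they are not separate evidence. The changes without MC_2580 were smaller than the largest gap between replicates of 1 genotype: 0.67 for TLR1, 1.13 for TLR6 and 1.27 for LY96. Their sign is therefore not established. The share of all genes with such a switch is not given here. Each value compares 1 library with another, and the difference was not tested.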

How the results depend on the processing

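With KO and WT, the count over all loci was 15, and 38 with a pseudocount of 0.1 FPKM, 59 among protein-coding genes with 1 locus, 0 with no filter on low values (1720 at an unadjusted p under 0.05) and 0 without any 1 of the 4 libraries (654 to 801). Replicate numbers are shared by the groups, but the labels do not say what they mark. Deviations of same-numbered KO and WT libraries correlated across loci (r = 0.211 over all loci, 0.856 over protein-coding genes), and a fit with the replicate block called 0 loci (3198 at an unadjusted p under 0.05). With the block, limma adjusted p-values were 0.149 (TLR1), 0.162 (LY96 and TLR2), 0.197 (TLR6), 0.217 (MYD88) and 0.797 (TLR4). An unadjusted limma p under 0.05 was reached by 4 members with the block and 3 without it. No member passed under any of these alternatives in limma. Leaving out 1 library, TLR4 ranged from -0.39 (without WT 1) to 0.58, with -0.08 without KO 2, and MYD88 from -0.04 (without WT 1) to 0.57. TLR6 ranged from 0.04 (without KO 1) to 1.16 (without KO 2), TLR2 from -1.88 (without WT 2) to -0.78 (without WT 1), LY96 from 1.40 (without KO 1) to 2.68 (without KO 2) and TLR1 from 0.84 (without WT 2) to 1.51 (without WT 1).

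At 4-fold, the members higher were 1 in MC_2580, 0 in RA 1 uM and 3 in the combination against DMSO, 3 in the combination against RA 0.01 uM and 1 against MC_2580. The authors' calls gave 1 for MC_2580. With a pseudocount of 0.1 FPKM, RA 1 uM had 2 (MYD88 at 1.03) and the RA doses differed in 1 (TLR1 at 1.02), while TLR4 in the combination passed against DMSO (1.18) and MC_2580 (1.07), and LY96 lay 1.57 above the sum. Of the members' values recomputed, 3 turned round, 5 in the treatments newly passed 2-fold and the other 144 kept their direction. In KO and WT the side of 2-fold was not counted. Leaving out 1 library put TLR6 past it (1.16 without KO 2). It left TLR1 (0.94 without KO 1, 0.84 without WT 2) and TLR2 (-0.78 without WT 1) short of 2-fold. How far depth limits each member was not measured, since read totals are not given.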
